A study of Mus musculus with 8 samples.

Results

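Aldo-keto reductases are soluble enzymes that use NADPH, and in some members NADH, to reduce the carbonyl group of aldehydes and ketones to an alcohol. The genes described here are the 9 family 1 members *Akr1a1*, *Akr1b3*, *Akr1b8*, *Akr1e1*, *Akr1c12*, *Akr1c13*, *Akr1c14*, *Akr1c19* and the C-like member *Akr1cl*, taken by symbol from a table of 24341 genes. They were chosen with their difference between WT and *Lats1/2*-null pancreas in view, so for these 9 genes the comparison of genotypes is given as a description, without p-values for single members. Total RNA was sequenced from 8 pancreas buds of mouse embryos at E11.0, all with the strain label CD1, each bud giving a library of its own. There were 5 WT buds and 3 *Lats1/2*-null buds of genotype *Pdx1Creearly;Lats1f/f;Lats2f/f*, in which Cre driven by the *Pdx1* promoter acts in pancreatic progenitors and leaves the kinases in the other cells of the bud. According to the methods, WT controls could also be heterozygous littermates, and mesenchyme was pulled away with forceps before RNA was isolated. Levels are FPKM, fragments scaled to transcript length and library size, as computed by the authors. Differences are log2 fold changes, *Lats1/2*-null minus WT, on log2(FPKM + 1), a scale that understates the change of genes at low levels.

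The members differ in the carbonyl compound they take. AKR1A1, the aldehyde reductase, turns glucuronate into gulonate on the way to ascorbate, which mice can make. AKR1B3, the mouse aldose reductase, turns glucose into sorbitol, the first step of the polyol pathway, and its relative AKR1B8 reduces retinal and lipid aldehydes. AKR1E1 reduces anhydrofructose, a product of glycogen breakdown. The AKR1C enzymes are mainly hydroxysteroid dehydrogenases, which interconvert keto and hydroxyl groups of steroids and prostaglandins, and their genes stand in a cluster on one chromosome. Several reductase genes in other tissues respond to NRF2, the transcription factor that binds antioxidant response elements when cells are under oxidative stress.

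Some facts of the whole series touch these values. *Lats1* was at 14.1 to 16.6 FPKM in WT buds and at 10.1 to 13.8 FPKM in *Lats1/2*-null buds, without overlap, whereas the ranges of *Lats2* overlapped (11.6 to 14.7 against 11.1 to 13.4 FPKM). The summed level of 22 epithelium markers was 287 to 353 FPKM in WT buds, and 608, 538 and 1250 FPKM in *Lats1/2*-null replicates 1, 2 and 3. Among them 19 averaged 0.5 FPKM or more, of which 18 had a higher *Lats1/2*-null mean, and the 18 mesenchyme markers summed to 1216 to 1383 FPKM in WT against 972 to 1236 FPKM. Of the 17 tested mesenchyme markers, 15 had a lower *Lats1/2*-null mean. *Vim*, the most abundant of them, had a higher mean, at 360.9 to 481 FPKM in WT buds and at 493.1, 464.3 and 601.5 FPKM in *Lats1/2*-null buds. *Barx1*, the next most abundant, had a lower mean, at 172.6 to 500.1 FPKM in WT buds and at 183.3, 302.2 and 114.7 FPKM in *Lats1/2*-null buds. Both remained abundant after the dissection. The paper describes ectopic vimentin protein in the mutant epithelium at a slightly later stage. Which cells the *Vim* transcripts of *Lats1/2*-null buds came from was not tested. The 12 pancreatic progenitor markers summed to 116 to 166 FPKM in WT buds and to 181 to 453 FPKM in *Lats1/2*-null buds, and the 12 endocrine markers to 764 to 983 and 951 to 2299 FPKM. Sums of endothelium markers (169 to 264 against 121 to 186 FPKM), leukocyte markers (14.2 to 29.8 against 21.8 to 32.3 FPKM), nerve and neural crest markers (27.6 to 35.4 against 32.4 to 62.5 FPKM) and red blood cell markers (2655 to 15821 against 8020 to 10231 FPKM) overlapped between genotypes, although all 12 tested endothelium markers had a lower *Lats1/2*-null mean (median log2 fold change -0.38). Stomach and duodenum markers were at 0.990 to 3.70 FPKM in sum over all buds, with 4 of 12 listed at 0 throughout. In whole buds, a larger share of cells of one type and more RNA per cell cannot be told apart.

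*Akr1a1* dominated the family at E11.0. In FPKM, which are per transcript length, it averaged 152 ± 5.68 (SD, n = 5) in WT buds and made up 80.1% of the summed level of the 9 genes. *Akr1e1* followed at 11.6 ± 2.17 FPKM, then *Akr1b3* at 9.28 ± 4.22, *Akr1b8* at 6.37 ± 1.32 and *Akr1c19* at 4.93 ± 0.642 FPKM. The ranges of neighbors in this stretch of the order overlapped, so their order is not resolved by 5 buds. *Akr1c13* (2.48 ± 0.942 FPKM) and *Akr1c12* (2.39 ± 0.633 FPKM) came next and overlapped each other but not *Akr1c19*. *Akr1cl* (0.434 ± 0.222 FPKM) and *Akr1c14* (0.272 ± 0.198 FPKM) were lowest and overlapped. Only *Akr1c14* had a mean under 0.5 FPKM over the 8 buds and was left out of the fit, leaving 8 of the 9 members among 13777 tested genes. *Akr1cl*, with a WT mean under 0.5 FPKM, passed this filter only through the *Lats1/2*-null buds (mean 7.63 FPKM). Its place among the tested genes thus rests on the group where it was high.

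**Figure D1:**
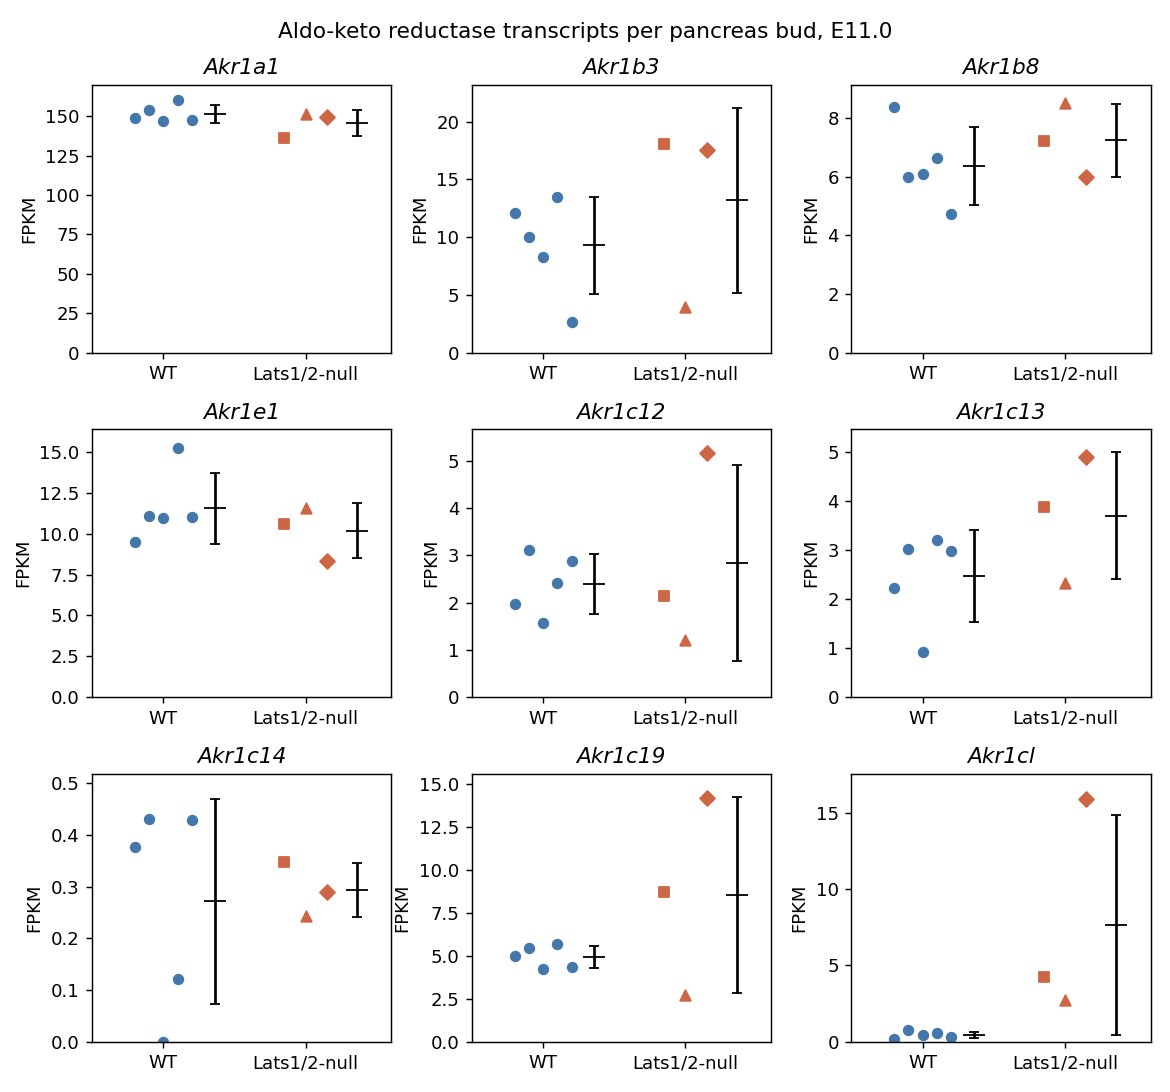
FPKM of each of the 9 genes in the 5 WT buds (circles) and in *Lats1/2*-null replicates 1 (square), 2 (triangle) and 3 (diamond), with the mean and SD of each genotype to the right of its points; every axis starts at 0 and has its own scale. *Akr1cl* is the gene whose 3 *Lats1/2*-null values, 2.72 to 15.9 FPKM, all lie above the WT values of 0.161 to 0.740 FPKM.

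*Akr1cl* was the member with the widest separation. It spans chr1:65013086-65032748 of GRCm38, on the minus strand, with 10 exons in a transcript of 1761 bases. The 5 WT buds were at 0.161, 0.740, 0.417, 0.545 and 0.310 FPKM, and *Lats1/2*-null replicates 1, 2 and 3 were at 4.24, 2.72 and 15.9 FPKM. All *Lats1/2*-null buds were therefore above all WT buds, and replicate 3 stood well above the other *Lats1/2*-null buds. The ratio of means was 17.6, and it was 8.01 without replicate 3, so that one library more than doubled the ratio. The log2 fold change was 2.28 ± 0.42 (SE), which 37 of the 13777 tested genes exceeded. It ranged from 1.64 without *Lats1/2*-null replicate 3 to 2.73 without *Lats1/2*-null replicate 2, and it was 3.55 when 0.1 in place of 1 FPKM was added.

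The WT level of *Akr1cl* is close to the detection limit. From the steps between low FPKM values, the WT values correspond to about 2.7 to 12.4 fragments per bud, and the *Lats1/2*-null values to about 48.3 to 276.5. These numbers are rough, since only some of the genes used to find the steps followed them. They also assume that the annotated transcript is the one expressed. The WT mean in the ratio thus rests on few fragments, while the *Lats1/2*-null values do not. No stretch of 75 bases, the read length, in the *Akr1cl* transcript occurs in the transcripts of another gene. Its coding sequence was closest to *Akr1c14*, with 75.5% identical bases, and shared 73.1% to 75.5% with the 4 *Akr1c* members against 59.2% to 63.2% with the others.

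All *Lats1/2*-null buds lay above all WT buds in 614 of 13777 tested genes (4.46%), and *Akr1cl* was the 1 member among them. The reverse order held for 421 genes (3.06%) and 0 members. An unadjusted limma p under 0.05 with a higher *Lats1/2*-null mean was found for 866 genes (6.29%) and 1 member, and with a lower mean for 687 genes (4.99%) and 0 members. After Benjamini-Hochberg adjustment over all tested genes, 2 genes (0.0145%) and 0 members had p under 0.05. These last counts were 69 of 13760 genes and 1 member without *Lats1/2*-null replicate 2, and 19 of 13699 genes and 1 member without replicate 3. Since these genes were chosen on this contrast, the counts describe them and are no evidence about the family. Of the 8 tested members, 6 had a higher *Lats1/2*-null mean and 2 a lower one, and their median log2 fold change was 0.27, beside -0.012 over all tested genes.

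**Figure D2:**
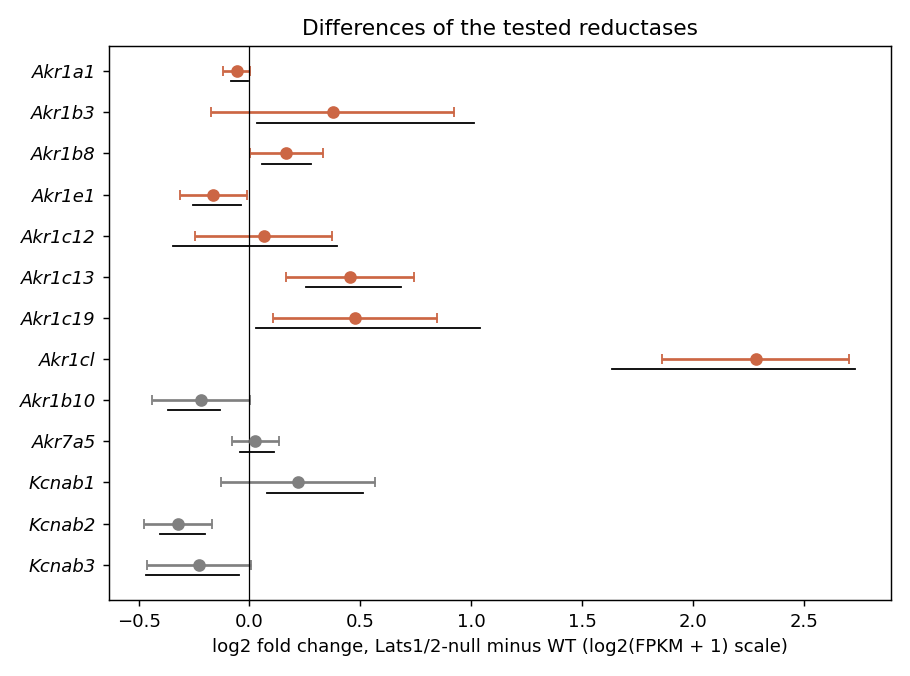
Log2 fold change (*Lats1/2*-null minus WT, log2(FPKM + 1) scale) with its SE for the 8 tested members (orange) and 5 further aldo-keto reductase superfamily genes (grey); the black line under each point spans the values with each bud left out in turn. *Akr1cl* stands at 2.28, and the other 12 genes lie between -0.32 and 0.48.

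The order of the *Lats1/2*-null buds in *Akr1cl* matched that of the epithelium markers. *Epcam*, an adhesion molecule of epithelia, was at 31.5 to 46.9 FPKM in WT buds and at 64.1, 56.0 and 136.5 FPKM in *Lats1/2*-null replicates 1, 2 and 3. Per 100 FPKM of the summed epithelium markers, *Akr1cl* was at 0.0499 to 0.210 FPKM in WT buds and at 0.699, 0.505 and 1.27 FPKM in the *Lats1/2*-null buds. The genotypes did not overlap on this scale either, and the ratio of means was 6.24. It was 6.88 per *Epcam* and 6.44 per *Cdh1*, the gene of E-cadherin. This scaling presumes that the transcript comes from epithelium, which whole-bud RNA cannot show.

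The 5 tested genes whose values followed *Akr1cl* most closely over the 8 buds were *BC021891*, *Ankrd1*, *D630045M09Rik*, *Mal2* and *Tinagl1*. Likeness was the mean absolute difference of log2(FPKM + 1) after each gene's own mean was subtracted, and it ran from 0.193 for *BC021891* to 0.246 for *Tinagl1*. *Ankrd1*, widely used as a target gene of YAP1, differed by 0.212. It was at 0 to 0.0619 FPKM in WT buds and at 2.29, 2.31 and 8.81 FPKM in *Lats1/2*-null replicates 1, 2 and 3. *Mal2*, which acts in apical transport in epithelia, was at 0.281 to 0.804 FPKM in WT buds against 3.96, 4.15 and 14.5 FPKM. Since the 5 genes were picked for this likeness, a shared order of the buds is no further result. Like *Akr1cl*, *BC021891*, *Ankrd1* and *D630045M09Rik* had WT means under 0.5 FPKM and passed the filter only through the *Lats1/2*-null buds.

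The promoter window of *Akr1cl*, from 250 bases before to 50 after its RefSeq start, is shown because this member had no overlap between genotypes. It lies at chr1:65032710-65033009 on the minus strand of GRCm38.p6 and is written 5′ to 3′ along that strand. Capitals mark TGACNNNGC, the core of the antioxidant response element, which is read here on the opposite strand.
Akr1cl: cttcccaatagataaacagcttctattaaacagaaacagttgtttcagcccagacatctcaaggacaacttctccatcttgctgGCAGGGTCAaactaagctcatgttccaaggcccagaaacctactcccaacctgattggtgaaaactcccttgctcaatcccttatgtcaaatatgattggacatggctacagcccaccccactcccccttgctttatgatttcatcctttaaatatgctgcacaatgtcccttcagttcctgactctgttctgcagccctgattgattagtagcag
The match starts at base 85 of the window, 166 bases before the start. These letters, searched on both strands, occur in 12.4% of 32851 mouse promoter windows of the same length. GGAATG, the core of the site bound by TEAD factors, the DNA-binding partners of YAP1, occurs in 14.7% of them and was not found in this window. A match describes the letters and does not show a site in use.

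*Akr1a1*, on chromosome 4 from 116636510 to 116651674, was the most even member. WT buds were at 149, 154, 147, 161 and 148 FPKM, and *Lats1/2*-null buds at 136, 152 and 149.9 FPKM. Only *Lats1/2*-null replicate 1 lay outside the WT range, below it. The log2 fold change was -0.057 ± 0.061 (SE), smaller than its error. It kept its sign in 16 of 16 alternatives, with values between -0.12 and -0.0088, although the filter and trend settings among them cannot change it. Its promoter window held neither motif, and its transcript shared no stretch of 75 bases with another gene.

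*Akr1e1*, the anhydrofructose reductase gene, stands on chromosome 13 from 4592490 to 4609164, next to *Akr1c21*. The WT buds were at 9.50, 11.1, 10.9, 15.3 and 11.003 FPKM, and the *Lats1/2*-null buds at 10.6, 11.6 and 8.31 FPKM. Replicate 3, the bud with the highest epithelium markers, had the lowest *Akr1e1* level of all 8 buds. The log2 fold change of -0.16 ± 0.15 (SE) was close to its error.

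*Akr1b8*, on chromosome 6 from 34354164 to 34368454, lies next to *Akr1b3*. Its WT values were 8.38, 6.003, 6.08, 6.65 and 4.74 FPKM, and its *Lats1/2*-null values were 7.201, 8.51 and 5.9996 FPKM. The genotypes overlapped through most of their range. The log2 fold change was 0.17 ± 0.16 (SE), with 0.058 and 0.28 as the lowest and highest values when each bud was left out in turn.

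*Akr1b3*, the aldose reductase gene at chr6:34303930-34317489, varied most among the well expressed members. WT buds were at 12.05, 10.04, 8.25, 13.5 and 2.61 FPKM, and *Lats1/2*-null buds at 18.0, 3.97 and 17.5 FPKM. Replicate 5 was low among the WT buds and replicate 2 among the *Lats1/2*-null buds. The log2 fold change of 0.37 ± 0.55 (SE) was smaller than its error, moving to 0.033 when WT replicate 5 was left out and to 1.01 when *Lats1/2*-null replicate 2 was left out.

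A second row of the table, *Gm6644*, carries the same coordinates as *Akr1b3*. RefSeq places *Gm6644* on chromosome 1, from 55443695 to 55445063, as a transcribed pseudogene with the synonym Akr1b3p. Its values were 19.9, 23.5, 24.2, 22.7 and 28.4 FPKM in the WT buds and 9.45, 29.1 and 9.46 FPKM in the *Lats1/2*-null buds. The 2 buds with the least *Akr1b3*, WT replicate 5 and *Lats1/2*-null replicate 2, had the most *Gm6644*, and the *Lats1/2*-null buds with the most *Akr1b3* had the least. The sum of both rows was 31.9, 33.5, 32.4, 36.2 and 31.0 FPKM in WT buds and 27.5, 33.1 and 27.0 FPKM in *Lats1/2*-null buds. Between the lowest and the highest bud, *Akr1b3* differed 6.90-fold, *Gm6644* 3.08-fold and their sum 1.34-fold.

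The direction of the *Akr1b3* difference turned when the rows were added. For the WT buds the sum averaged 33.0 ± 2.00 FPKM (SD, n = 5), and for the *Lats1/2*-null buds 29.2 ± 3.41 FPKM (SD, n = 3). This gave -0.18 for the log2 fold change, in an alternative chosen after the data were seen. Of the 1313 stretches of 75 bases in the *Akr1b3* transcript, 55.4% also occur in transcripts of other genes, and 652 of them (49.7%) in that of *Gm6644*. A read from these stretches cannot be assigned to 1 of the genes by its own sequence, although reads were paired and its mate may place it. The level of *Akr1b3* alone, and the sign of its difference, are therefore uncertain. Sharing all coordinates with another row was common in the table, at 5579 rows or 22.9%, and *Akr1b3* was the 1 member affected.

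**Figure D3:**
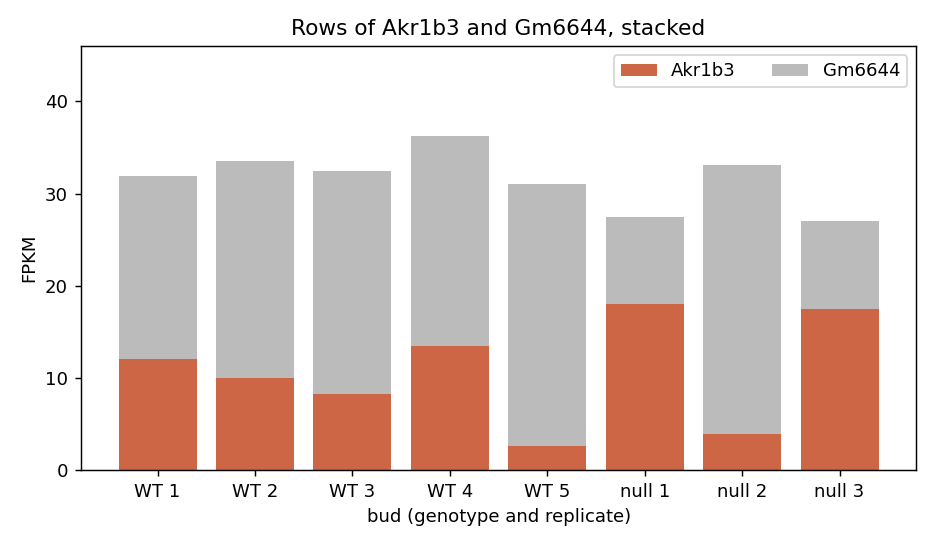
FPKM of *Akr1b3* (orange) and of *Gm6644*, the row with the same coordinates (grey), stacked for each of the 8 buds. The parts change places from bud to bud, while the full height stays between 27.0 and 36.2 FPKM.

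The *Akr1c* members, the hydroxysteroid dehydrogenase relatives, lie on chromosome 13 at coordinates from 4059591 for *Akr1c14* to 4279399 for *Akr1c12*. *Akr1c19*, from 4233740 to 4248359, was the most abundant of them. WT buds lay within 4.97, 5.44, 4.23, 5.66 and 4.33 FPKM, whereas *Lats1/2*-null replicates 1, 2 and 3 were at 8.71, 2.74 and 14.2 FPKM. No *Lats1/2*-null bud fell inside the narrow WT range, but replicate 2 was below it and the others were above. The mean log2 fold change was 0.48 ± 0.37 (SE). It fell to 0.032 without replicate 3 and reached 1.04 without replicate 2, so single buds set its size. Of its 75-base stretches 3.77% also occur in *Marcksl1-ps4*, a pseudogene row at 0 to 0.956 FPKM over the 8 buds.

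*Akr1c12* and *Akr1c13* are near copies. Their coding sequences share 96.2% of bases and differ at 37 positions, and 205 stretches of 75 bases, 17.3% of each transcript, are the same in both. *Akr1c12* was at 1.97, 3.11, 1.58, 2.43 and 2.88 FPKM in WT buds and at 2.13, 1.21 and 5.18 FPKM in *Lats1/2*-null buds. As with *Akr1c19*, replicate 2 was below the WT range and replicate 3 above it. The log2 fold change of *Akr1c12* was 0.064 ± 0.31 (SE), and it turned to -0.35 without replicate 3. *Akr1c13* was at 2.24, 3.02, 0.927, 3.20 and 2.99 FPKM in WT buds and at 3.89, 2.33 and 4.91 FPKM in *Lats1/2*-null buds. Replicates 1 and 3 were above the WT range and replicate 2 within it, with a log2 fold change of 0.45 ± 0.29 (SE). Because reads can be split between the pair, both were also added together, after the data were seen, which gave 0.32.

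*Akr1c14*, whose product acts on the keto group of dihydrotestosterone and related steroids in liver and brain, was hardly detected. Its WT values were 0.377, 0.430, 0, 0.122 and 0.429 FPKM, and its *Lats1/2*-null values were 0.348, 0.244 and 0.289 FPKM. The *Lats1/2*-null values all lay within the WT range. On its transcript of 3183 bases the highest of these values corresponds to about 13.0 fragments, so a lower level or a small difference would not have been detectable at this depth.

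In 4 of the 9 members, *Akr1cl*, *Akr1c12*, *Akr1c13* and *Akr1c19*, *Lats1/2*-null replicate 3 was the highest of the *Lats1/2*-null buds, and in 6 of 9 replicate 2 was the lowest. Replicate 2 was instead the highest in *Akr1a1*, *Akr1b8* and *Akr1e1*, and replicate 3 the lowest in *Akr1b8* and *Akr1e1*. How often all tested genes take these orders was not counted, so the counts are no result about the members. Replicate 3 also had the highest and replicate 2 the lowest summed epithelium markers of the *Lats1/2*-null buds. Per 100 FPKM of these markers, *Akr1c19* was at 1.23 to 1.76 FPKM in WT buds and at 1.43, 0.509 and 1.13 FPKM in the *Lats1/2*-null buds, with no bud above the WT range. On the same scale *Akr1c12* was at 0.550 to 0.883 FPKM in WT buds and lower, at 0.351, 0.225 and 0.414 FPKM, in the *Lats1/2*-null buds. *Akr1a1*, even in FPKM, was at 41.9 to 51.2 FPKM per 100 in WT buds and at 22.4, 28.2 and 11.99 FPKM in *Lats1/2*-null buds. Of the 8 tested members, *Akr1cl* was the 1 gene whose *Lats1/2*-null buds lay above the WT range both with and without this scaling. The marker sum was itself higher in every *Lats1/2*-null bud than in any WT bud, so dividing by it lowers all members there. How many of all tested genes lie above the WT range on this scale was not counted. The part of cell composition in any of these values was not tested.

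**Figure D4:**
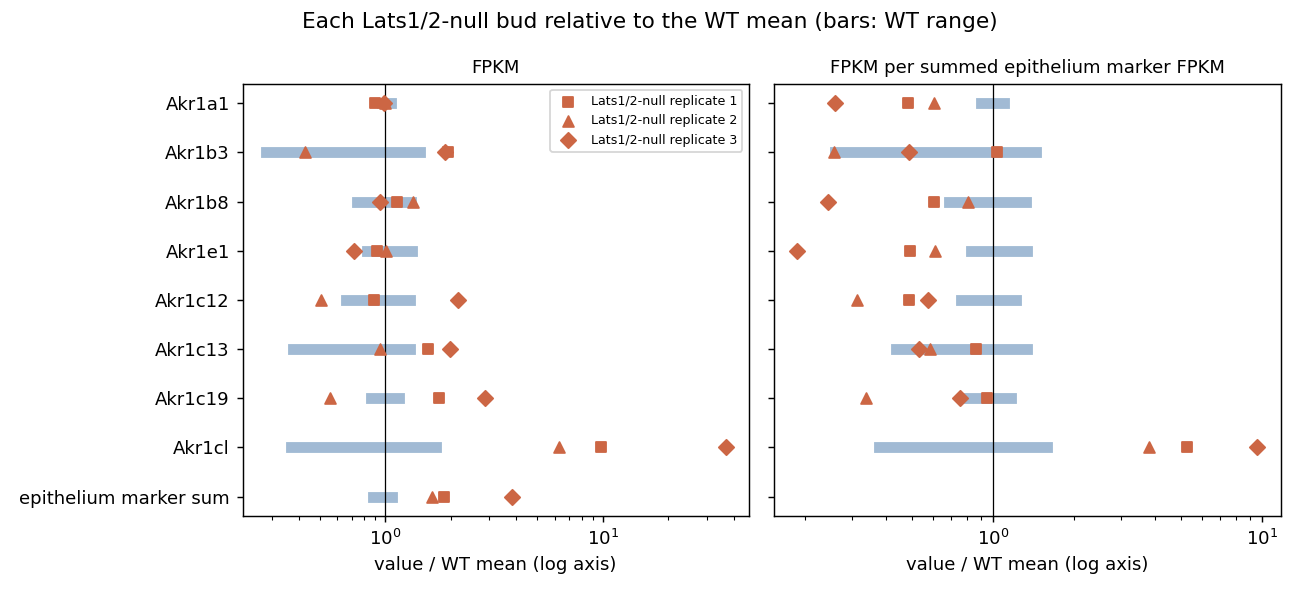
Each *Lats1/2*-null bud divided by the WT mean, on a log axis, for the 8 tested members and the summed epithelium markers in FPKM (left) and for the members per summed epithelium marker FPKM (right); blue bars span the WT buds, and squares, triangles and diamonds are replicates 1, 2 and 3. *Akr1cl* lies to the right of the WT range in both panels, at a mean ratio of 17.6 and of 6.24, while no other member has a bud to the right of its WT range once scaled.

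Promoter windows of 3 *Akr1c* members are shown to compare the near copies with each other and with *Akr1c19*, the most abundant of the *Akr1c* members. They are those of *Akr1c12* (chr13:4279350-4279649, minus strand), *Akr1c13* (chr13:4190937-4191236, plus strand) and *Akr1c19* (chr13:4233490-4233789, plus strand) in GRCm38.p6, each 5′ to 3′ along the strand of its gene. Capitals mark GGAATG in *Akr1c12* and the opposite strand of TGACNNNGC in *Akr1c19*.
Akr1c12: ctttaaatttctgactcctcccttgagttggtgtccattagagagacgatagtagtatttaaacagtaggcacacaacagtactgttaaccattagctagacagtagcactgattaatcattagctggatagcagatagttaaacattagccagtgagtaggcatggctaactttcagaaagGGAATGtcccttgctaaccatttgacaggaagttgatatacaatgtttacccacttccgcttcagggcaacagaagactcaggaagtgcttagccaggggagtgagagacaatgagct
Akr1c13: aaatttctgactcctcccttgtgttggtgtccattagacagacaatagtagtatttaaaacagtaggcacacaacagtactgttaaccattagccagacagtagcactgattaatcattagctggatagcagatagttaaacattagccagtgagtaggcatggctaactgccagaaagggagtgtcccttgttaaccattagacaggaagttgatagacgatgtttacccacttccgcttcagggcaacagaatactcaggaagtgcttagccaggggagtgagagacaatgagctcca
Akr1c19: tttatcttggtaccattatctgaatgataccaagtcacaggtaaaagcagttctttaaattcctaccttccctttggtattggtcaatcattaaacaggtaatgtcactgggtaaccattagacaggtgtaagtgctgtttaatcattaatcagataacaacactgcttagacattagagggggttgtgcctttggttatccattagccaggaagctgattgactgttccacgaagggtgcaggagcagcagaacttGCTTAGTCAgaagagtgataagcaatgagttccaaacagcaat
Over aligned bases without gaps, the windows of *Akr1c12* and *Akr1c13* were 96.0% identical, and that of *Akr1c19* was 62.9% identical to *Akr1c12* and 67.1% to *Akr1c13*. GGAATG was found in the *Akr1c12* window alone, from its base 183, and in no other of the 8 members with a window. The match in *Akr1c19* starts at base 258, just past the start of the gene. The windows of *Akr1a1*, *Akr1b8*, *Akr1c13*, *Akr1c14* and *Akr1e1* held neither motif.

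Other members of the superfamily differed little. Of 11 such genes, 5 were tested, and 0 had an unadjusted limma p under 0.05, beside 6.29% (higher) and 4.99% (lower) of all tested genes. With so few genes, this count cannot be told apart from those shares. *Akr1b10*, next to *Akr1b8* on chromosome 6, was at 2.19 to 5.07 FPKM in WT and at 3.78, 3.06 and 2.71 FPKM in *Lats1/2*-null buds (log2 fold change -0.22, limma adjusted p = 0.766). *Akr7a5*, the gene of an aflatoxin aldehyde reductase, was at 15.4 to 20.7 FPKM against 19.8, 20.9 and 17.0 FPKM (0.026, limma adjusted p = 0.951). The potassium channel beta subunits *Kcnab1*, *Kcnab2* and *Kcnab3*, which share the reductase fold, had log2 fold changes of 0.22, -0.32 and -0.23 with limma adjusted p of 0.865, 0.493 and 0.771. For *Kcnab2* the genotypes did not overlap, with WT buds between 1.59 and 2.30 FPKM and *Lats1/2*-null buds at 1.43, 0.952 and 1.58 FPKM. All *Lats1/2*-null buds lay below all WT buds in 3.06% of all tested genes. *Akr1b7*, *Akr1c6*, *Akr1c18* and *Akr1c21* had means under 0.5 FPKM with 0 in some buds, and *Akr1c20* and the bile acid reductase gene *Akr1d1* were listed at 0 in all 8 buds. *Akr1c6* and *Akr1d1* are abundant in liver, and the 12 liver markers summed to 113 to 197 FPKM in WT buds and to 201, 161 and 463 FPKM in *Lats1/2*-null replicates 1, 2 and 3. *Ttr* made up the larger part of these sums, at 83.1 to 141.7 FPKM in WT buds and at 148.4, 107.4 and 318.1 FPKM in *Lats1/2*-null buds. *Afp*, another of these markers, is listed by the paper among known TEAD targets. Whether liver cells were present was not tested.

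Genes of the reactions around these enzymes were read from the same fit, and none of the tested genes of the 5 lists had an limma adjusted p under 0.05. Among 18 other NADPH-dependent carbonyl reductases, 14 were tested, with 6 higher, 8 lower and a median log2 fold change of -0.017. An unadjusted limma p under 0.05 was found for 1 gene, *Dhrs11*, beside 6.29% (higher) and 4.99% (lower) of all tested genes. *Dhrs11* was at 2.101 to 5.45 FPKM in WT buds and at 5.43, 5.15 and 5.52 FPKM in *Lats1/2*-null buds (0.64 ± 0.22 (SE), limma adjusted p = 0.326). *Ptgr2* and *Ptgr1*, reductases of prostaglandin ketones, followed with 0.25 and -0.30. Of 12 polyol, fructose and glucuronate-ascorbate genes, 10 were tested, 5 in each direction, with a median of -0.013. Among these, 1 had an unadjusted limma p under 0.05, in the higher direction. *Rgn*, whose product acts after AKR1A1 in ascorbate synthesis, was at 0 to 0.263 FPKM in WT buds and at 0.492, 1.25 and 2.13 FPKM in *Lats1/2*-null buds (0.97, limma adjusted p = 0.197), and *Tkfc* and *Slc2a5* were at -0.20 and 0.22.

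Aldehyde dehydrogenases oxidize aldehydes that the reductases reduce. Of 19 genes, 14 were tested, with 9 higher, 5 lower and a median of 0.042. In each direction 2 had an unadjusted limma p under 0.05, beside 6.29% (higher) and 4.99% (lower) of all tested genes. *Aldh1a2*, which makes retinoic acid in mesenchyme, was at 12.2 to 25.9 FPKM in WT buds and at 5.91, 4.59 and 5.25 FPKM in *Lats1/2*-null buds, without overlap (-1.66 ± 0.23 (SE), limma adjusted p = 0.0631). Its adjusted p was under the threshold when WT replicate 4 was left out. *Aldh1a7* and *Aldh1a1* lay on the other side, at 0.97 (limma adjusted p = 0.154) and 1.03 (limma adjusted p = 0.258). *Aldh1a7* was at 0.0523 to 0.258 FPKM in WT buds against 1.047, 0.732 and 2.24 FPKM, so that *Lats1/2*-null replicate 3 was again the highest and replicate 2 the lowest of the *Lats1/2*-null buds. Like *Rgn*, *Aldh1a7* and *Aldh1a1* had WT means under 0.5 FPKM and were tested only through their *Lats1/2*-null levels.

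Of 39 genes of the NRF2 pathway and its textbook targets, 30 were tested, with 19 higher, 11 lower and a median of 0.061. An unadjusted limma p under 0.05 was found for 5 of these 30 genes in the higher and 3 in the lower direction, beside 6.29% and 4.99% of all tested genes. The 3 genes with the smallest p, named here, all lay in the higher direction. *Gsr*, glutathione reductase, was at 16.1 to 19.5 FPKM in WT buds and at 22.0, 21.8 and 23.8 FPKM in *Lats1/2*-null buds (0.33 ± 0.083 (SE), limma adjusted p = 0.209). *Mafk*, a small MAF partner of NRF2, and *Gsta3*, a glutathione transferase, had 0.84 and 1.19 (limma adjusted p = 0.242 and 0.264). Of 29 steroid, prostaglandin and bile acid genes, 28 were in the table and 16 were tested, with 7 higher, 9 lower and a median of -0.014. Among the tested ones, 1 had an unadjusted limma p under 0.05, in the lower direction, beside 4.99% of all tested genes. *Hsd11b2*, which inactivates glucocorticoids, was at 25.9 to 40.8 FPKM in WT buds and at 18.9, 21.9 and 11.95 FPKM in *Lats1/2*-null buds (-0.96 ± 0.20 (SE), limma adjusted p = 0.150), and *Hsd17b10* and *Hsd17b11* were at -0.11 and -0.26.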

How the data were processed

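RNA-seq was compared between 5 WT and 3 *Lats1/2*-null pancreas buds at E11.0. The authors trimmed reads, aligned them to GRCm38 with TopHat2 2.1.0, and deposited FPKM per gene computed with Cuffdiff 2.2.1. Quantile normalization is named in the methods, but the deposited FPKM columns differ in their distributions and were used as they are. Library depth is not given by FPKM, and the read number that the paper states was not used. From steps in genes with a single exon, 1 fragment in 1000 bases was worth between 0.0991 and 0.106 FPKM, except in WT replicate 5 with 0.134 FPKM, so low values in that bud are coarser. The steps were sought within a fixed range. They held for 20 of 63 genes in WT replicate 4 and for 28 of 62 in *Lats1/2*-null replicate 2, so these worths are approximate.

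The 9 members, the gene lists and the tests were chosen with earlier results of these data known. limma 3.58.1 in R 4.3.3 was fitted to log2(FPKM + 1) of the 13777 genes averaging 0.5 FPKM or more, with a mean-variance trend and Benjamini-Hochberg adjustment at 0.05. The script was tested on simulated data. All members and superfamily genes are named, as are the 3 genes of each pathway list with the smallest p and the 5 genes nearest to *Akr1cl*. Marker lists are given by their sums, with *Vim* and *Barx1*, the 2 most abundant tested mesenchyme markers, and with *Epcam* and *Cdh1*, named after their values were seen. The methods mention littermate controls, but no label ties a bud to a litter, so litter could not be modeled and p-values measure the spread between single buds. Coding and shared sequences come from GENCODE M21 transcripts, the longest coding transcript of each gene, in place of the planned protein comparison, and promoters from RefSeq (8 of 9 members matched, all but *Akr1b3*). Alternatives were another pseudocount, filter, normalization, library weights, no trend, a replicate block and each bud left out.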

Additional observations from a re-analysis of the deposited data

Results flagged for a closer look

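The 9 members, the 5 other superfamily genes tested and *Gm6644*, 15 genes in all, were checked for single WT buds that stand apart from their group. The measure was the gap to the nearest bud over the whole range (critical value 0.71 for 5 buds). Chance alone flags about 5% of such groups. *Akr1e1* was at 15.25 FPKM in WT replicate 4, with the nearest bud at 11.06 and the lowest at 9.497 FPKM (0.728). *Kcnab1* was at 6.275 FPKM in WT replicate 1, with the nearest bud at 1.971 and the lowest at 1.175 FPKM (0.844).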

How the results depend on the processing

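Of 130 member fold changes recomputed under alternatives, 129 moved by less than the replicate SD, and that of *Akr1cl* moved to 3.55 with a pseudocount of 0.1. This count is no measure of robustness. The filter and trend settings leave a fold change as it is, and leaving out 1 bud cannot shift it by more than the replicate SD. *Akr1c12* kept its sign in 13 of 16 alternatives and the other 7 tested members in 16 of 16, and *Akr1b3* summed with *Gm6644* gave -0.18. The count of members called over all tested genes was 0, with 1 under array weights and 0 to 1 with a bud left out. The count of all genes called was 2, with 18 at a pseudocount of 0.1, 174 under array weights, 1 without a mean-variance trend and 0 to 69 with a bud left out (69 without *Lats1/2*-null replicate 2). Genes at an unadjusted p under 0.05 numbered 1553, with 2578 under array weights and 781 to 2018 with a bud left out (781 without *Lats1/2*-null replicate 3). Called genes of the pathway lists numbered 0, and 0 to 1 with a bud left out (1, *Aldh1a2*, without WT replicate 4). The cause was not tested.

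Replicate numbers are shared by both genotypes. Deviations of same-numbered buds correlated only weakly (0.0855, -0.0969 and 0.0685), yet 2 of 3 *Lats1/2*-null buds were closest to the WT bud of their own number. These values do not settle whether the numbers pair buds. With the replicate block, 1 gene was called, 1266 had an unadjusted p under 0.05, and no member was called. Depth limits *Akr1c14* and the WT level of *Akr1cl*, and shared sequence limits *Akr1b3*, *Akr1c12* and *Akr1c13*.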
